A study of Mus musculus with 4 samples.

Results

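The genes described here encode 9 cell-surface receptors of natural killer (NK) cells: Ncr1, Klrb1c, Klrk1, Cd226, Cd160, Klrd1, Klre1, Klra9 and Klrg1. They were picked by symbol, and each of the 9 symbols matched 1 of the 31053 gene rows of every matrix. The data are 4 single-cell RNA libraries of stroma-enriched cells of the submandibular salivary gland of female C57BL6/J mice. In the 2 deligated libraries (age 14 weeks) a metal clip had closed the main ducts for 14 days and had been off for 5 days. The 2 homeostatic libraries (age 12 weeks) came from glands without surgery, so age differed together with surgery. All 4 suspensions had been depleted of EpCAM-bearing epithelial cells, Ter119-bearing red cells and dead cells. Sublingual glands are also mentioned in the protocols, which state that 2 glands were taken, without saying how many animals gave a library. Nothing in the labels says that the 2 libraries of a group came from separate animals, so every p-value measures only the spread between these libraries, which may be technical.

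NK cells and type 1 innate lymphoid cells decide whether to kill or to secrete cytokines by adding up activating and inhibitory receptor signals. Ncr1 (NKp46), Klrb1c (NK1.1), Klrk1 (NKG2D) and Cd226 (DNAM-1) are activating receptors, and Cd160 binds the TNF-receptor family protein encoded by Tnfrsf14 and class I MHC molecules. Klrd1 (CD94) pairs with NKG2 chains to read the non-classical class I molecule Qa-1, Klre1 pairs with the short or long Klri chains, and Klra9 belongs to the Ly49 family of class I receptors. Klrg1 is an inhibitory receptor for cadherins and is also known from type 2 innate lymphoid cells and effector T cells. Salivary glands are known to hold a tissue-resident NK population, and activated CD8 T cells and gamma-delta T cells can carry several of the same receptors.

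A RefSeq upstream window (GRCm38.p6) was on hand for 6 of the 9 genes, all but Klrd1, Klrg1 and Cd226. Those of Ncr1, Klrk1 and Cd160 are shown, since these genes lie on different chromosomes and their RNA was found chiefly in the same cell class. Each is the 250 bases before the first RefSeq start of the table, read 5′ to 3′ on the gene's strand, with the letters TGTGGT or their reverse complement ACCACA in capitals, the core letters bound by Runt (Runx) factors.
Ncr1 (chr7:4337465-4337714, plus strand): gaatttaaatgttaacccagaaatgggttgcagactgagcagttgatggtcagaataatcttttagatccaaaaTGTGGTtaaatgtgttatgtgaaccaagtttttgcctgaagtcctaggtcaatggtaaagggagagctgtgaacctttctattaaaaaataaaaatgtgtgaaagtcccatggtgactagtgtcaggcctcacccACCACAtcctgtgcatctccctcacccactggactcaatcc
Klrk1 (chr6:129623865-129624114, minus strand): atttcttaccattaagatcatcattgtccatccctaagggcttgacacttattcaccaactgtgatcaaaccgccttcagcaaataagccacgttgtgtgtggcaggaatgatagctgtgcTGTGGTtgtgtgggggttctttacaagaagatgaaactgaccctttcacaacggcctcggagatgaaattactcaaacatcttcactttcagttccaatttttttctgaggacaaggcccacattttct
Cd160 (chr3:96829352-96829601, minus strand): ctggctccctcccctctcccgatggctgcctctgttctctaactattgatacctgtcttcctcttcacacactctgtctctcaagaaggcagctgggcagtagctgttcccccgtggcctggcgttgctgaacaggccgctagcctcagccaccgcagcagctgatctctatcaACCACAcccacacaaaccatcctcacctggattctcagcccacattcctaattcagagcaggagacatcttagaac
The Runt letters, searched on both strands, occurred in at least 1 window of 5 of the 6 genes (not of Klra9). Ncr1, Klre1 and Cd160 have 2 windows each, and the second of Klre1 does not hold the letters. The windows of Klrb1c and Klre1 and the second of Cd160 lie inside the gene bounds given below, not before them. The letters are in 14.0% of all 32851 single windows, a rate per window and not per gene. The T-box letters AGGTGTG (reverse complement CACACCT), searched the same way and not overlapping the Runt letters, occurred in no window of the 6 genes and in 5.10% of all windows. A match describes the letters of the window and no binding.

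Of the 9 genes, 6 lie on chromosome 6 of GRCm38, in GENCODE M21: Klrg1 (122270596 to 122282882, minus strand), Klrb1c (128778485 to 128789215, minus), Klre1 (129577905 to 129585827, plus), Klrd1 (129591782 to 129598775, plus), Klrk1 (129610323 to 129623864, minus) and Klra9 (130178675 to 130193112, minus). Ncr1 lies on chromosome 7 (4337724 to 4345164, plus), Cd160 on chromosome 3 (96798763 to 96829351, minus) and Cd226 on chromosome 18 (89176967 to 89272229, plus). Klrb1c overlaps Gm44511 on its own strand, Cd160 overlaps Pdzk1 on the other strand, and Klra9 has near-identical Ly49 neighbours, so the counts of these 3 genes are uncertain.

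Depth was read in UMIs (unique molecular identifiers, which count captured RNA molecules). There were 35662241 and 53898793 UMIs on 4725 and 8713 barcodes in deligated 1 and 2, and 53633980 and 52379402 UMIs on 12854 and 13266 barcodes in homeostatic 1 and 2. Pairs of libraries shared 14 to 54 barcodes, at most 0.482% of a library. Cells were clustered without the 9 genes, so that the receptors did not define the classes. NK/innate lymphoid-like cells numbered 888 and 2089 in the deligated and 1000 and 1055 in the homeostatic libraries, with 5510 to 6252 median UMIs per cell. T cell-like cells numbered 600 and 804 against 156 and 158, with 5005 to 5367 median UMIs. Between 54.7% and 58.1% of NK/innate lymphoid-like cells had a UMI of Prf1 (perforin) and 96.9% to 99.1% of Nkg7. Cd3e, a CD3 chain of the T cell receptor complex, had a UMI in 0.676% to 1.63% of them and in 89.7% to 97.2% of T cell-like cells. Other genes of that complex were found in more NK/innate lymphoid-like cells: Cd3d in 4.4% to 6.46%, Cd3g in 17.1% to 25.2%, Trbc2 in 37.1% to 41.7% and Trdc in 26.5% to 28.5%. In T cell-like cells Cd3g was found in 96.2% to 99.7%, Trbc2 in 92.3% to 97.5% and Trdc in 20.1% to 30.3%. Eomes, a factor of NK cells, had a UMI in 36.6% to 46.2% of NK/innate lymphoid-like cells, and Itga1, an integrin of resident cells, in 74.6% to 78.2%. Different clusters held the class in the 2 groups: cluster 0 held 99.8% and 99.9% of them in the deligated libraries, and cluster 24 held 98.9% of them in each homeostatic library. Unnamed clusters took 3.14% and 3.12% of all cells in the deligated libraries, and 24.5% and 25.9% in the homeostatic ones. Among them was cluster 32, whose 40 cells all came from homeostatic 1 and which was left unnamed for that reason, although NK/innate lymphoid genes gave 7 of its markers. Its cells had 397 CPM of Ncr1, with a UMI in 82.5% of them, and 757 CPM of Klrd1, and they held 2.33% and 2.38% of that library's UMIs of these genes. Cluster 20, led by cell cycle genes and unnamed for that reason, lay in all 4 libraries, with 33 and 29 cells in the deligated and 85 and 75 in the homeostatic ones. It held 2.20% and 1.05% of Ncr1 UMIs in the deligated and 3.70% and 3.22% in the homeostatic libraries, and 0.888% to 3.90% of Klrd1 UMIs.

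NK/innate lymphoid-like cells held most of the UMIs of 8 of the 9 genes in every library. Their share of a gene's UMIs was 86.1% to 92.6% for Ncr1, 83.3% to 92.5% for Klrb1c, 79.0% to 89.6% for Klrd1, 83.9% to 92.4% for Klre1 and 84.0% to 93.8% for Klra9. It was 73.5% to 90.4% for Klrk1, 63.2% to 79.5% for Cd226 and 57.8% to 82.6% for Cd160. T cell-like cells held 5.22% to 21.8% of Klrk1, 13.9% to 33.4% of Cd226 and 14.3% to 38.1% of Cd160. Klrg1 had 38.0% to 50.7% of its UMIs in NK/innate lymphoid-like cells. In endothelial-like cells, which should lack these receptors, levels ran from 0 to 13.9 CPM (the usual depth-scaled count, here a gene's UMIs relative to all UMIs of the class in that library). The highest was Klrd1 in deligated 2, at 13.9 CPM against 1110 CPM in that library's NK/innate lymphoid-like cells. Deligated 2 had the highest endothelial level of Ncr1, Klrb1c, Klrd1, Klrk1, Klre1, Klra9 and Cd160, and its fibroblast-like and mural-like cells likewise had up to 23.4 and 23.9 CPM of Klrd1 against at most 2.64 CPM in the other 3 libraries.

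**Figure D1:**
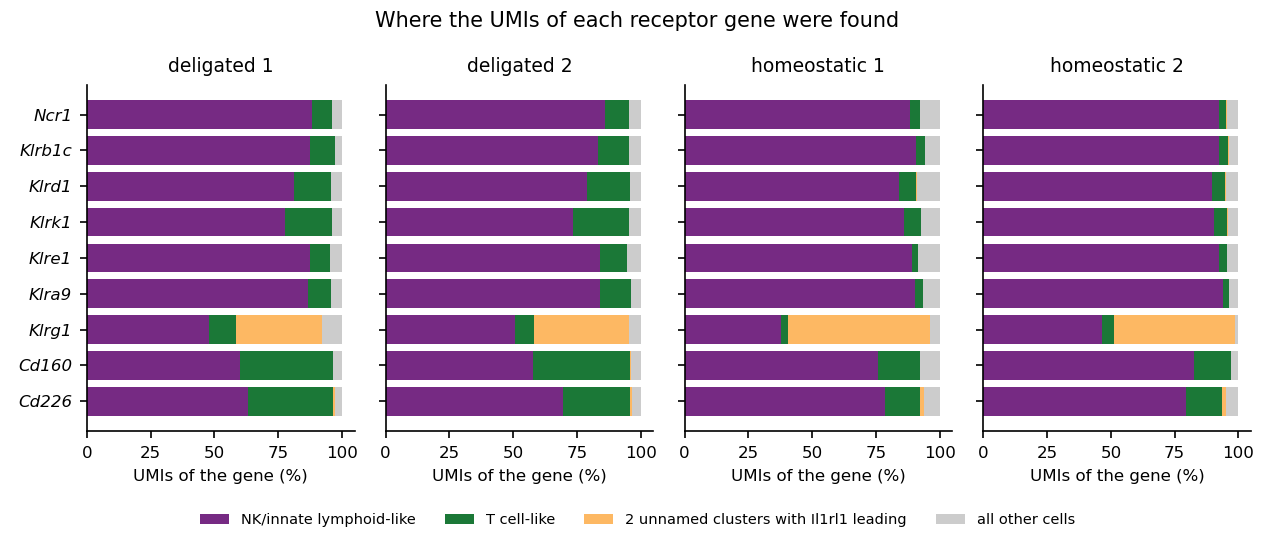
Share of each receptor gene's UMIs (horizontal axis, percent) in NK/innate lymphoid-like cells, T cell-like cells, 2 unnamed clusters with Il1rl1 among their leading genes, and all other cells, 1 panel per library. NK/innate lymphoid-like cells hold most UMIs of 8 of the 9 genes in every library and 38.0% to 50.7% of Klrg1, of which the 2 unnamed clusters hold 33.7% to 55.7%.

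To compare shares of positive cells across libraries of unlike depth, each cell was thinned to 1000 UMIs and 3 or fewer shallower NK/innate lymphoid-like cells per library were left out. Thinned shares are far below the unthinned ones, and both are given with n = 2 libraries a group. Ncr1 was found in 37.6% ± 1.08 (SD) of deligated and 37.4% ± 2.32 of homeostatic NK/innate lymphoid-like cells, and unthinned in 88.0% to 90.5% of them. Klrk1 was found in 37.9% ± 1.27 and 39.6% ± 1.43, Klre1 in 34.2% ± 0.11 and 36.9% ± 1.08, Klra9 in 36.2% ± 4.02 and 33.2% ± 2.92, and Cd160 in 8.43% ± 1.63 and 8.14% ± 0.31. For Ncr1, Klrk1, Klra9 and Cd160 the 2 groups overlapped.

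Klrb1c and Cd226 were the genes whose positive shares stood furthest apart between groups. Klrb1c had a UMI in 40.8% (exact Clopper-Pearson 95% interval 37.6% to 44.1%) and 39.7% (37.6% to 41.8%) of deligated cells. In homeostatic cells the shares were 30.3% (27.5% to 33.2%) and 32.9% (30.1% to 35.8%), and unthinned they were 90.2% and 88.5% against 80.2% and 83.1%. Cd226 went the other way, with 19.8% (17.3% to 22.6%) and 22.2% (20.4% to 24.0%) of deligated against 30.4% (27.5% to 33.4%) and 30.5% (27.7% to 33.4%) of homeostatic cells. The unthinned Cd226 shares, 54.4% and 63.7% against 62.5% and 64.0%, overlapped. Klrd1 was found in 59.2% and 65.5% of deligated and 56.6% and 57.7% of homeostatic cells. With 2 libraries against 2, an exact permutation test cannot give a two-sided p below 0.333, so shares carry no test. The intervals cover counting error only. In thinned endothelial-like cells (median depths of 3677 to 5835 UMIs before thinning), no gene exceeded 1.27%. Klrg1 had 0 positive endothelial-like cells after thinning, which limits the share of cells with a UMI at that depth to 0.161% and 0.0976% in deligated and 0.0874% and 0.0877% in homeostatic cells. Unthinned, 1 cell in each deligated library had a UMI of Klrg1.

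**Figure D2:**
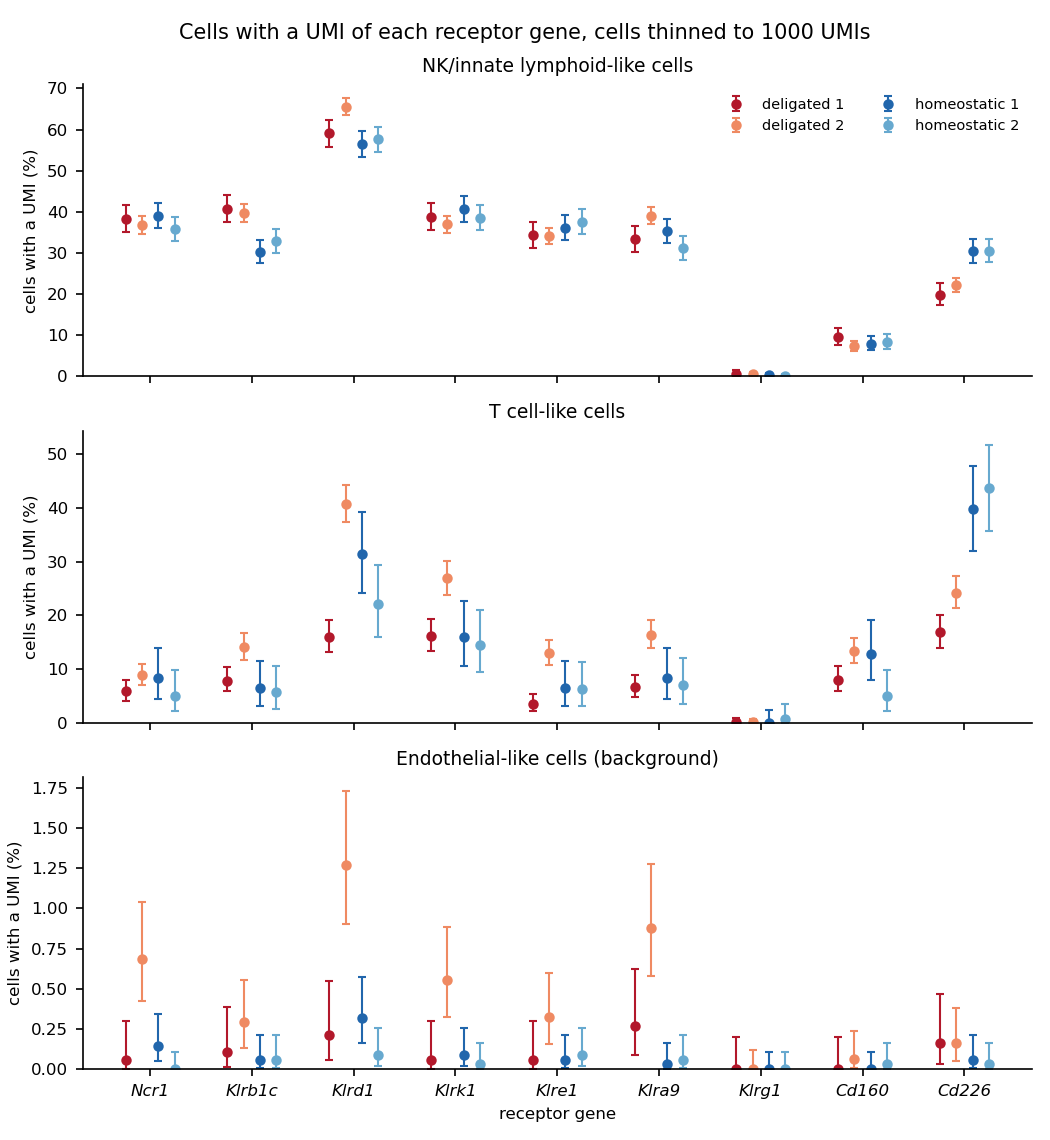
Percent of cells with at least 1 UMI of each receptor gene (vertical axes, different scales) after thinning every cell to 1000 UMIs, in NK/innate lymphoid-like, T cell-like and endothelial-like cells. Points are libraries and bars exact Clopper-Pearson 95% intervals; Klrb1c is higher and Cd226 lower in both deligated libraries of NK/innate lymphoid-like cells, and endothelial-like cells stay at or under 1.27%.

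For the comparison of groups, UMIs were summed over the cells of a class in each library and tested with edgeR over all genes. A gene was called at a false discovery rate (FDR, the Benjamini-Hochberg adjusted p) under 0.05. Among 11552 genes tested in NK/innate lymphoid-like cells, 43.9% were called, 16.9% higher and 27.0% lower in the deligated libraries. Of the 9 receptor genes 4 were called, 3 higher and 1 lower. A share near the background says nothing particular about the receptors. Their median log2 fold change was 0.16, against 0.02 over all genes tested.

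Among the activating receptors, Ncr1 stood at 484 and 476 CPM in deligated and 480 and 459 CPM in homeostatic NK/innate lymphoid-like cells. All 4 values lay close together, and the log2 fold change was 0.12 (SE 0.08, edgeR FDR 0.243). Klrb1c was left out of the clustering but was among the leading genes of cluster 0, which held nearly all deligated cells of this class. It stood at 554 and 520 CPM against 379 and 378 CPM, both deligated libraries above both homeostatic ones. It rose by 0.59 on the log2 scale (SE 0.09, edgeR FDR 0.00089) and passed the threshold under all 15 settings tried, with values from 0.36 to 0.69. Klrk1 stood at 563 and 498 CPM against 525 and 491 CPM, groups that overlapped (log2 fold change 0.16, SE 0.10, edgeR FDR 0.233). Cd160 stood at 113 and 84.2 against 104 and 90.2 CPM, again with overlap (0.10, SE 0.15, edgeR FDR 0.626). Without deligated 2 the fits gave Ncr1 0.19 (edgeR FDR 0.0249), Klrk1 0.29 (0.00021), Cd160 0.36 (0.00037) and Klrg1 0.78 (0.0422), so that 8 of 9 genes passed, with 48.0% of all genes called in that fit.

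Cd226, the adhesion receptor for Pvr and Nectin2, stood at 223 and 256 CPM in deligated and 448 and 451 CPM in homeostatic NK/innate lymphoid-like cells. Both deligated values lay below both homeostatic ones. Cd226 fell by 0.82 on the log2 scale (SE 0.09, edgeR FDR 0.00013). It is the gene with the longest introns of the 9, 90.4 kb in all. The file headers name Cell Ranger 6.0.1 for the deligated and 7.0.0 for the homeostatic libraries, and genes with much intron were lower in the deligated ones. In NK/innate lymphoid-like cells the 2770 genes with over 50 kb of intron had a median log2 fold change of -0.82, 1842 of them being called lower and 65 higher. Genes with up to 5 kb had a median of 0.31. After this trend was subtracted, Cd226 was at -0.10 (edgeR FDR 0.393) and Klrb1c, with 7.77 kb of intron, at 0.36 (edgeR FDR 0.0148). The effect of the software version cannot be told apart from that of the group.

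Of the MHC-reading receptors, Klrd1 stood at 930 and 1110 CPM against 853 and 862 CPM and rose by 0.34 (SE 0.09, edgeR FDR 0.0151). Klra9 stood at 493 and 608 against 504 and 463 CPM, groups that overlapped in CPM, and the log2 fold change was 0.28 (SE 0.10, edgeR FDR 0.0464). Neither call was held without homeostatic 1 (Klrd1 0.30, edgeR FDR 0.156; Klra9 0.31, 0.177) or without homeostatic 2 (0.38, 0.093; 0.24, 0.281). After subtraction of the intron trend they were at 0.08 and 0.11 (edgeR FDR 0.540 and 0.413). Of 15 settings, the main one included, Klrd1 was called in 12 and Klra9 in 7. Klre1 stood at 475 and 441 against 495 and 481 CPM and did not pass the threshold (edgeR FDR 0.998), while the same trend removal put it at -0.28 (edgeR FDR 0.0454). Klrg1 had 44 and 76 UMIs in deligated and 30 and 39 in homeostatic cells, or 7.78 and 5.96 against 4.46 and 5.51 CPM (log2 fold change 0.51, SE 0.28, edgeR FDR 0.166). Summed markers of other cells also differed between the libraries of this class: the 7 fibroblast genes stood at 41.7 and 117 CPM in deligated and 5.50 and 7.20 CPM in homeostatic cells. The 8 mural genes stood at 53.8 and 83.6 against 15.9 and 18.5 CPM. Other sums were lower in the deligated cells, with the 7 macrophage genes at 5.30 and 20.3 against 46.5 and 26.7 CPM and the 7 epithelial genes at 125 and 174 against 219 and 222 CPM. The 11 T cell genes stood at 412 and 457 against 426 and 408 CPM. The 11 genes used as NK markers were themselves higher in both deligated libraries, at 12900.5 and 16247.7 against 11653.5 and 11427.8 CPM. The part of other cells, or of this rise in NK markers, in the receptor differences was not tested.

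**Figure D3:**
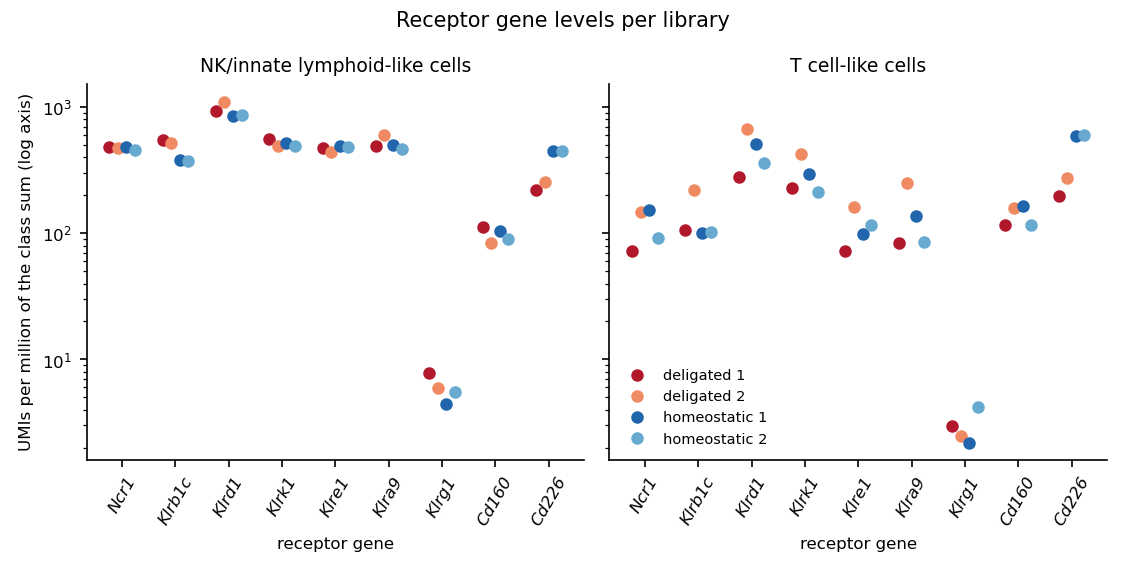
Level of each receptor gene (vertical axis, CPM, log scale) in NK/innate lymphoid-like and T cell-like cells, 1 point per library. In the left panel Klrb1c, Klrd1 and Klrg1 lie higher and Klre1 and Cd226 lower in both deligated libraries; in the right panel the 2 deligated libraries stand apart from each other for most genes, and Cd226 is lower in both.

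**Figure D4:**
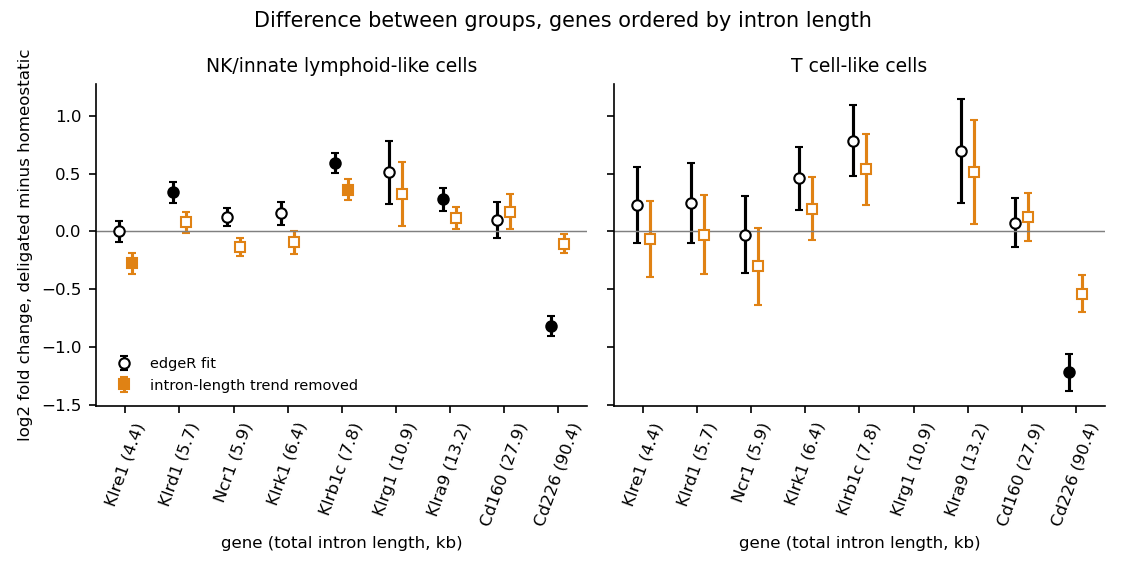
Log2 fold change, deligated minus homeostatic (vertical axis), of each receptor gene ordered by total intron length in kb, from the edgeR fit (circles) and with the intron-length trend removed (squares), bars giving the SE and filled symbols an adjusted p under 0.05. Cd226, with 90.4 kb of intron, moves from -0.82 to -0.10 in NK/innate lymphoid-like and from -1.22 to -0.54 in T cell-like cells, and Klrg1 was not tested in T cell-like cells.

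T cell-like cells carried the same receptors at lower levels, apart from Cd160 and Cd226. The ratio of the NK/innate lymphoid-like to the T cell-like level in a library was 3.15 to 6.65 for Ncr1, 2.36 to 5.23 for Klrb1c, 2.74 to 6.57 for Klre1 and 2.42 to 5.91 for Klra9. It was 1.64 to 3.32 for Klrd1, 1.18 to 2.47 for Klrk1 and 1.31 to 2.62 for Klrg1. For Cd160 it was 0.53 to 0.98 and for Cd226 0.75 to 1.13. The classes come from clustering the same cells, so these ratios carry no test. After thinning, Klrd1 was found in 16.0% and 40.8% of deligated and 31.4% and 22.2% of homeostatic T cell-like cells, and Klrk1 in 16.2% and 26.9% against 16.0% and 14.6%. Cd226 was found in 16.9% and 24.3% against 39.7% and 43.7% of them. Ncr1, a gene that few T cells are known to express, was found in 5.06% to 8.83%.

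Between groups, 19.0% of 9675 genes were called in T cell-like cells, 4.67% higher and 14.4% lower, and 1 of the 8 receptor genes that passed the low-count filter was called. That gene was Cd226, at 198 and 275 CPM in deligated and 587 and 603 CPM in homeostatic cells, with both deligated values below both homeostatic ones. Cd226 fell by 1.22 on the log2 scale (SE 0.16, edgeR FDR 0.0014) and stood at -0.54 (edgeR FDR 0.0819) after subtraction of the intron trend. Klrb1c was at 106 and 220 against 101 and 103 CPM (log2 fold change 0.79, SE 0.31, edgeR FDR 0.114), with deligated 1 near the homeostatic values and deligated 2 above them. The 2 deligated libraries stood far apart for several receptors: Klrd1 was at 280 and 676 CPM in them and at 507 and 361 in the homeostatic ones, and Klra9 at 83.5 and 251 against 137 and 86.1 CPM. The 11 genes used as NK markers, none of them among the 9 receptors, were also highest in deligated 2 T cell-like cells, with summed levels of 7620 and 11822 CPM in deligated and 8506 and 7832 CPM in homeostatic cells. The part of NK cells or free RNA in these T cell-like values was not tested. The median log2 fold change of the 8 genes was 0.24, against 0.03 over all genes. Without deligated 1, 6 of 8 genes passed, 5 of them higher (Klra9 1.28, edgeR FDR 1.56e-14; Klrb1c 1.22, 9.02e-13), with 30.3% of all genes called. Without deligated 2, 3 passed, all lower, with 30.4% of all genes called, and the median was -0.35 in place of 0.72 without deligated 1.

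The T cell-like class was made of 3 clusters whose weights differed between libraries. Cluster 1, led by Cd8b1 and Cd8a, held 74.2% and 91.8% of the deligated cells, cluster 31, with Themis, Cd6 and Cd4 among its leading genes, held 87.8% and 81.6% of the homeostatic cells, and cluster 18, led by Il17a, Cd163l1 and Il23r, held 25.8%, 8.21%, 7.05% and 15.8% of the 4 libraries in the order deligated 1, deligated 2, homeostatic 1, homeostatic 2. Cluster 18 carried few of the 9 receptors. In its 155 cells of deligated 1 and 66 of deligated 2, Klrb1c had a UMI in 0% and 3.03% of thinned cells, Ncr1 in 1.29% and 4.55% and Klrd1 in 3.23% and 4.55%, against 8.78% and 16.5%, 6.76% and 10.6%, and 19.1% and 43.5% in cluster 1. Klrk1 (12.9% and 9.09%) and Cd226 (19.4% and 18.2%) were found in cluster 18 as well. Without cluster 18, a setting chosen after the data were seen, Klrb1c passed in T cell-like cells besides Cd226. The share of all genes called in that fit is not given here, so nothing particular to the receptors is read from it.

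Whether the response differed between the 2 classes was tested as an interaction over both classes with the library as a block. No gene passed in 12009 tested (background 0%), with 657 at an unadjusted p under 0.05 and 1 call by DESeq2, and no receptor gene did, with 1 of 9 at an unadjusted p under 0.05 (0 by DESeq2). That gene was Cd226, whose log2 fold change was 0.34 higher in NK/innate lymphoid-like cells (SE 0.12, edgeR FDR 0.897). Without deligated 2, 3 receptor genes passed, among them Cd226 (0.57, edgeR FDR 0.0055), with 1.36% of all genes called in that fit. These values do not show that the classes responded alike.

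The T cell-like class was also gated on genes other than the receptors. Cells with Cd8a or Cd8b1 and no Cd4 numbered 215 and 188 in the deligated and 54 and 53 in the homeostatic libraries. In them 17.4% of genes were called (4.40% higher, 13.0% lower), and 2 of 8 receptor genes: Cd226, at 160 and 236 against 571 and 543 CPM (log2 fold change -1.30, SE 0.19, edgeR FDR 0.00023), and Klrb1c, at 65.9 and 162 against 41.8 and 66.1 CPM (1.25, SE 0.40, edgeR FDR 0.0429). The Klrb1c groups overlapped, and without deligated 2 the value was 0.53 (edgeR FDR 0.278), without homeostatic 1 0.94 (0.496) and without homeostatic 2 1.61 (0.324). Cd226 stood at -1.28 and -1.34 without homeostatic 1 and homeostatic 2 (edgeR FDR 0.0997 and 0.0966), and subtraction of the intron trend put it at -0.57 and Klrb1c at 0.96 (edgeR FDR 0.0934 and 0.197). Cells with Cd4 alone were too few for a test, at 45 and 46 against 17 and 18.

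Klrg1 had the smallest share of its UMIs in NK/innate lymphoid-like cells of the 9 genes in all 4 libraries. Its highest levels were in 2 small unnamed clusters with Il1rl1, the IL-33 receptor, among their leading genes. Cluster 12, with Areg and Lif also leading, had 45 and 127 cells in the deligated libraries with 119 and 81.4 CPM of Klrg1 and a UMI in 44.4% and 29.1% of cells, unthinned. Cluster 28 had 73 and 75 cells in the homeostatic libraries with 113 and 96.9 CPM and a UMI in 34.2% and 33.3%. In NK/innate lymphoid-like cells Klrg1 was at 4.46 to 7.78 CPM, and at most 3.6% of cells had an unthinned UMI. Median depths were 5510 to 6252 UMIs there and 4977 to 5723 UMIs in the 2 clusters. Together the clusters held 33.7% and 37.3% of all Klrg1 UMIs in the deligated and 55.7% and 47.6% in the homeostatic libraries.

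The same 2 clusters carried genes known from type 2 innate lymphoid cells: Gata3 at 782, 905, 851 and 630 CPM, Il1rl1 at 391, 533, 573 and 618 CPM, Rora at 211, 230, 514 and 572 CPM and Areg at 456, 384, 224 and 337 CPM. Il5 was at 11.5 to 28.3 CPM and Il13 at 2.57 to 7.67 CPM. Of the other receptors, Cd226 stood at 53.7 and 43.6 against 149 and 136 CPM there, and Ncr1, Klrb1c, Klrd1, Klrk1, Klre1, Klra9 and Cd160 at 0 to 58.1 CPM. Apart from 1 cell of homeostatic 1 in cluster 12 and 1 cell of deligated 2 in cluster 28, the clusters are of 1 group each. No name was given to the clusters, since no list used for naming had 3 of its genes in them. They were singled out after the data were seen.

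Single cells carried several of the receptors at once. After thinning, NK/innate lymphoid-like cells had UMIs of 2.75 and 2.82 receptor genes on average in the deligated and 2.77 and 2.73 in the homeostatic libraries, with a median of 3 in each. T cell-like cells had 0.81 and 1.58 against 1.29 and 1.10, and endothelial-like cells 0.0038 to 0.0423. NK/innate lymphoid-like cells without any of the 9 made up 2.51% to 3.95%, whereas T cell-like cells without any made up 57.6% in deligated 1, 26.0% in deligated 2, 32.1% in homeostatic 1 and 37.3% in homeostatic 2. At least 5 genes were found in 8.23% to 9.92% of NK/innate lymphoid-like and 0% to 2.49% of T cell-like cells.

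**Figure D5:**
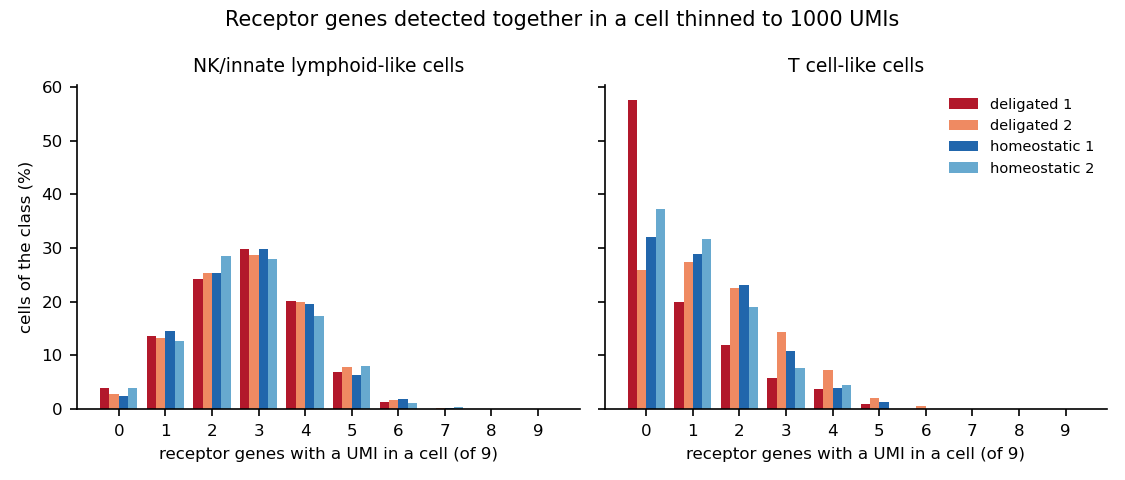
Percent of cells (vertical axis) by the number of the 9 receptor genes with a UMI (horizontal axis), cells thinned to 1000 UMIs, 1 bar colour per library. The 4 libraries run together in NK/innate lymphoid-like cells with a median of 3 genes, and 57.6% of deligated 1 T cell-like cells have none.

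Within NK/innate lymphoid-like cells thinned to 2000 UMIs, some pairs of receptors were found in the same cell more often than their separate shares give, measured as a log2 odds ratio per library. Klrk1 and Cd160 went together in all 4 libraries (0.90, 0.93, 0.65 and 0.83), as did Klrk1 and Klre1 (0.64, 0.51, 0.43 and 0.62) and Ncr1 and Klrb1c (0.62, 0.35, 0.30 and 0.31). Cd226 was found apart from Cd160 (-1.36, -0.66, -0.54 and -0.92), from Klrk1 (-0.67, -0.59, -0.65 and -0.84) and from Klre1 (-0.35, -0.54, -0.68 and -0.46). Klra9 and Cd160 were also found apart (-0.44, -0.90, -0.52 and -0.31). Of the 36 pairs, those named were chosen for their size and common sign after the values were seen, and odds ratios over the cells of a library are given as a description.

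Other NK receptors and the signalling proteins behind them were taken from lists. Of 28 other receptors, all tested in NK/innate lymphoid-like cells, 17 were called, 8 higher and 9 lower, with a median log2 fold change of -0.08. Of 21 adaptor and signalling genes 16 were called, 8 in each direction, with a median of -0.08. These shares are to be read against 43.9% of all genes (16.9% higher, 27.0% lower). The NKG2 chains that pair with CD94 went different ways. Klrc1, the inhibitory NKG2A, rose from 51.9 and 62.7 to 77.8 and 81.8 CPM (0.57, edgeR FDR 0.0050), and Klrc2, the activating NKG2C, from 118 and 115 to 176 and 151 CPM (0.57, edgeR FDR 0.0035). Klrc3, the NKG2E chain, named after its values were seen, fell from 17.0 and 15.7 to 8.84 and 5.65 CPM (-1.16, edgeR FDR 0.0047), and was at -0.74 without deligated 2 (0.0037). Klrb1b, the inhibitory NKR-P1B relative of Klrb1c, rose from 37.0 and 31.2 to 58.0 and 61.2 CPM (0.90, edgeR FDR 0.00029). Lat, a linker of T cell and NK receptor signals, rose from 39.7 and 37.1 to 48.1 and 61.7 CPM (0.62, edgeR FDR 0.0039). Plcg1, a phospholipase downstream of Lat, was called (1.45, edgeR FDR 0.0438) on 14 and 97 against 16 and 13 UMIs, of which only deligated 2 is high. Lat was at 0.32 (edgeR FDR 0.0819) after subtraction of the intron trend. Without homeostatic 1 Klrc1 stood at 0.41 (edgeR FDR 0.0907), without homeostatic 2 Lat at 0.59 (0.0578), and without deligated 2 Plcg1 at 0.37 (0.636). Without homeostatic 1 or homeostatic 2 Plcg1 stood at 1.59 (0.138) or 1.28 (0.211).

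Among the receptors that were lower, Tigit, the inhibitory receptor that shares its ligands with Cd226, stood at 9.02 and 9.89 CPM in deligated and 30.6 and 27.8 CPM in homeostatic NK/innate lymphoid-like cells and fell by 1.53 (edgeR FDR 6.31e-05). Klra10, a Ly49 receptor, stood at 6.54 and 4.47 against 23.5 and 25.6 CPM (log2 fold change -2.14), and is given without a test because it was among the leading genes of cluster 24. Klri1, a partner of Klre1, stood at 3.01 and 1.73 against 7.29 and 7.20 CPM (-1.63, edgeR FDR 0.0052), and Klra2 had 0 and 6 UMIs against 13 and 15 (-2.54, edgeR FDR 0.0161). Plcg2, a phospholipase downstream of NK receptors, fell from 123 and 124 to 38.2 and 37.1 CPM (-1.63, edgeR FDR 5.03e-06). With the intron-length trend removed, Tigit stood at -1.67 and Plcg2 at -0.59, both still called. Without homeostatic 1 or homeostatic 2 the FDR of Klra2 was 0.124 or 0.159 (-2.68, -2.49), and without homeostatic 2 that of Klri1 was 0.0568 (-1.58). Klra10 and Klra2 share sequence with other Ly49 genes, so their counts are uncertain.

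In T cell-like cells 3 of 25 other receptors were called, 2 higher and 1 lower (median -0.12), and 8 of 20 signalling genes, 3 higher and 5 lower (median -0.01), against 19.0% of all genes (4.67% higher, 14.4% lower). The receptors were Ly9 (0.69) and the costimulator Cd27 (0.68), higher, and Tigit (-1.88), lower. Lat (0.77), the phosphatase Ptpn6 (0.68) and Hcst (0.62), the DAP10 adaptor of NKG2D, were higher. Plcg2 (-1.83), the kinase Fyn (-1.13), the phosphatase Inpp5d (-1.04) and Vav1 (-0.85) were lower. Their edgeR FDR lay between 0.00098 (Fyn) and 0.0440 (Ptpn6). After subtraction of the intron trend Fyn was at 0.19 (edgeR FDR 0.456), and of these genes Tigit alone was still called (-2.05, 0.0261). Fyn was called with any 1 library left out. Without homeostatic 1 the others but Inpp5d lost the call (edgeR FDR 0.103 for Plcg2 to 0.267 for Ptpn6), and without homeostatic 2 the others but Plcg2 did (0.0594 for Inpp5d to 0.192 for Tigit). Tigit also lost it without deligated 1 (-1.78, 0.116) or deligated 2 (-1.97, 0.109). Over all alternatives these 10 genes lost the call in 44 fits with the direction kept, and Fyn alone changed direction, after the intron trend was removed.

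Ligands of the receptors were read on neighbouring cells. In endothelial-like cells 35.3% of genes were called (13.0% higher, 22.3% lower), and 3 of the 11 ligand genes tested. Pvr, a ligand of Cd226 and Tigit, stood at 24.7 and 27.8 CPM in deligated and 22.5 and 20.1 CPM in homeostatic cells (log2 fold change 0.32, SE 0.10, edgeR FDR 0.0490). Ulbp1, a ligand of NKG2D, stood at 3.56 and 4.68 against 7.26 and 6.97 CPM (-0.76, SE 0.19, edgeR FDR 0.0236), and Cdh4, a cadherin ligand of Klrg1, at 2.33 and 2.52 against 6.51 and 5.64 CPM (-1.30, SE 0.20, edgeR FDR 0.0047). With the intron-length trend removed Cdh4 was at 0.18 and Pvr at 0.20, neither called. Without homeostatic 1 all 3 lost the call (edgeR FDR 0.201, 0.163 and 0.0590), and without homeostatic 2 Pvr and Ulbp1 did (0.411 and 0.141). Of 9 alternatives each, Pvr was called in 2, Ulbp1 in 5 and Cdh4 in 7. Leaving out 1 library moved the count of ligands called, up without deligated 1 or deligated 2 and down without homeostatic 1 or homeostatic 2. The share of all genes called also rose without deligated 1 or deligated 2, and is not given here for the fits without a homeostatic library. DESeq2 called 2 of 16, a count given without the share of all genes called in that fit. The moves of the count are therefore not read as particular to the ligands.

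No ligand gene was called by edgeR in fibroblast-like (7 tested, with 27.2% of all genes called, 8.75% higher and 18.4% lower) or mural-like cells (8 tested, with 7.93% called, 1.21% higher and 6.72% lower), and none had an unadjusted p under 0.05 there or was called by DESeq2. Without deligated 1, 5 of 9 tested were called in fibroblast-like (40.6% of all genes) and 2 of 6 in mural-like cells (13.0%), all higher, and without deligated 2, 3 of 8 in fibroblast-like cells (36.3%), all lower. Clec2d, the ligand of the NKR-P1B and related receptors, stood at 678, 946, 619 and 629 CPM in endothelial-like, 179, 192, 171 and 183 CPM in fibroblast-like and 405, 409, 315 and 320 CPM in NK/innate lymphoid-like cells. H2-T23, which encodes Qa-1, stood at 247, 654, 567 and 521 CPM in endothelial-like cells, with deligated 1 the lowest. Nectin2 stood at 24.6, 29.9, 25.1 and 21.9 CPM in endothelial-like cells, with groups that overlapped. Of the cadherins, Cdh1 stood at 104, 149, 173 and 170 CPM in the NK/innate lymphoid-like cells themselves and Cdh2 at 46.7, 49.4, 57.5 and 40.9 CPM in mural-like cells.

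Over 36 sums of a class in a library, the genes whose log levels followed the mean of the 9 receptors most closely among 11415 genes were Cst7 (Pearson's r = 0.986), Klrc2 (0.975), Nkg7 (0.974), Klrb1f (0.973) and Samd3 (0.967). The sums share libraries and classes, and Nkg7 had been used to name the NK/innate lymphoid-like class.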

How the data were processed

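The deposited matrices hold raw UMI counts per gene and barcode, made with Cell Ranger 6.0.1 (deligated) and 7.0.0 (homeostatic) per the file headers. The submitters' processing notes name Cell Ranger 6.0.1, Seurat and mm10 for all libraries. Whether intron reads or strand were used in counting is not given in the sources used here. Of 31053 gene identifiers 99.9% matched GENCODE M21, the source of coordinates and intron lengths.

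Cells with at least 300 genes and at most 10% mitochondrial UMIs were kept, and the highest doublet scores were removed at 0.8% per 1000 barcodes, which left 4357 and 7823 deligated and 10615 and 10900 homeostatic cells. With the 9 receptor genes left out, cells were clustered by the Leiden method at resolution 1.0 (scanpy 1.11.5; 3000 variable genes, 30 principal components, 20 neighbours, no batch correction). A cluster was named "-like" from at least 3 markers, by scoring rules set with the clusters in view.

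Sums of UMI counts over the cells of a class, 1 per library, were tested with edgeR 4.0.16 (quasi-likelihood, TMM, low-count filter, Benjamini-Hochberg adjustment over all genes of a fit, two-sided). A simulated test recovered 72% of log2 changes of 1 and 100% of those of 2 for the NK/innate lymphoid-like class (11387 genes), and 68% and 100% for the T cell-like class (9627 genes), with 8 and 9 false calls. Alternatives were DESeq2 1.42.0, no low-count filter, each library left out, blocks, thinning, subtraction of the intron-length trend, another resolution, a stricter cell filter, doublets kept and receptors kept in the clustering. All 9 receptors are named. From 2 lists of other receptors and signalling genes, up to 5 called genes per direction and class with the largest change are named, and 7 listed symbols are not analysed here. Subsets of NK/innate lymphoid-like cells and the erythroid marker sum are not reported here. The receptors and all lists were chosen with earlier results of these data known.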

Additional observations from a re-analysis of the deposited data

How the results depend on the processing

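Calls rested on which libraries were used and on the intron-length trend. In NK/innate lymphoid-like cells, 5071 genes became 3291 with DESeq2, 2437 with thinned cells and 2624 to 6753 with each library left out, and the 4 receptor genes became 2 to 8 with each library left out and 2 without the intron trend. In T cell-like cells, 1842 genes became 1010 with DESeq2, 531 with thinned cells and 810 without the intron trend. They became 674 to 2620 with each library left out. The 1 receptor gene became 4 without the low-count filter, 0 without the intron trend and 2 without the cluster led by Il17a. It became 1 to 6 with each library left out. The number of all genes called is not given here for the T cell-like fits without the filter or that cluster. Nor is it given for NK/innate lymphoid-like cells without the intron trend. The receptor counts of those fits are therefore not read against a background. The count of receptors that differ between the classes ran from 0 to 3 with each library left out. The 2 calls in CD8 T cell-like cells became 1 when cells were thinned before the gate. They became 0 without the intron trend (a setting added for the gate after the data were seen). With each library left out they became 0 to 3. Ligand calls were counted over endothelial-like, fibroblast-like and mural-like cells together. The 3 ligand calls of the main fits became 5 without the low-count filter and 0 to 18 with each library left out. Numbers of all genes called are not given beside these counts. The counts are therefore not read as particular to the receptors or ligands. Medians over the 9 shares, 36.2% and 33.2% in deligated and homeostatic NK/innate lymphoid-like cells and 10.95% and 7.65% in T cell-like cells, were 54.6%, 50.6%, 17.7% and 13.5% after thinning to 2000 UMIs, 79.4%, 80.7%, 31.4% and 27.1% unthinned, and 64.4%, 62.4%, 17.6% and 17.5% for at least 2 UMIs. The stricter cell filter gave 34.8% in homeostatic NK/innate lymphoid-like cells.

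Signs turned for several log2 fold changes. With the intron trend subtracted they were, in NK/innate lymphoid-like cells, -0.13 for Ncr1 and -0.10 for Klrk1, in T cell-like cells -0.028 for Klrd1, -0.063 for Klre1 and 0.19 for Fyn, and 0.18 for Cdh4 in endothelial-like cells. Klre1 in NK/innate lymphoid-like cells was 0.015 with DESeq2, 0.050 without the filter, 0.010 with receptors in the clustering, 0.053 with doublets kept and -0.084 to 0.10 with each library left out, and Cd160 was -0.14 to 0.36. In T cell-like cells, with each library left out, Ncr1 ran from -0.60 to 0.39, Klrd1 from -0.49 to 0.75, Klrk1 from -0.013 to 0.84, Klre1 from -0.43 to 0.68, Klra9 from -0.27 to 1.28 and Cd160 from -0.15 to 0.34, the lowest without deligated 2 for all but Cd160 (homeostatic 2). Ncr1 there was 0.038 without the filter, 0.33 with thinned cells, 0.14 with receptors in the clustering and 0.048 without the Il17a-led cluster, and Klre1 was -0.26 at resolution 2.0. The cause was not tested. With 1 library left in a group, that library is assumed to vary like the other group.

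Replicate numbers did not show pairing: with 2 pairs, deviations from the group means correlated at -0.15 in NK/innate lymphoid-like and -0.08 in T cell-like cells. The replicate block gave 4867 genes and 3 receptors in NK/innate lymphoid-like and 1744 and 1 in T cell-like cells. It gave 2 receptor calls in CD8 T cell-like cells and 2 ligand calls, both without the number of all genes called. The crossed pairing, added after seeing the data, gave 5430 and 4, and 1844 and 1. No paired analysis was possible for the interaction because its library block already holds the replicate number.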
